A study of Mus musculus with 17 samples.

Results

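The chromatin around 8 genes that encode basic leucine zipper transcription factors, Batf, Batf2, Batf3, Jdp2, Atf3, Atf4, Atf5 and Atf7, was described from 17 ATAC-seq peak lists of bone marrow-derived macrophages (BMDMs). The loci were chosen by gene name, and every peak within 20 kb of a gene body (GENCODE annotation, mouse build GRCm38, also called mm10) was collected, which gave 48 accessible elements of the 34155 found in the whole genome. The macrophages were grown from marrow of male mice 6 to 12 weeks old and either carried Nur77 (WT littermates) or lacked it throughout the body (Nur77-KO, here KO). The deletion of the loxP-flanked Nr4a1 gene, which encodes the nuclear receptor Nur77, had been made by a Cre recombinase under the CMV promoter. The study names the strain C57Bl6/J for the Cre mice and gives none for the loxP mice. The labels give the KO samples the genotype "cre", whereas the study's methods describe KO mice from which Cre had been bred out again. Cells of both genotypes were left untreated (0 h) or received lipopolysaccharide (LPS, a bacterial cell wall component sensed by Toll-like receptor 4) at 100 ng/ml for 1 h or 18 h. WT cells gave 3 lists at 0 h, 2 at 1 h and 3 at 18 h, and KO cells gave 3 lists at each time. The label of 1 WT 1 h list gives its replicate as "1-2", and nothing says whether it pools samples. The comparisons asked where accessibility around these genes moved with LPS and whether Nur77 changed that movement.

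Leucine zipper factors bind DNA as pairs, and the AP-1 site is the classical target of pairs of Jun with Fos, BATF or JDP2 proteins. BATF proteins lack an activation domain of their own and act with Jun and interferon regulatory factors, JDP2 competes with Fos for Jun, and ATF3 is an early stress-response gene known in macrophages to restrain Toll-like receptor target genes. ATF4 and ATF5 belong to the integrated stress response, where much of their control lies in translation, and ATF7 is a relative of ATF2 that binds cyclic AMP response elements. ATAC-seq reads come from a transposase that cuts open DNA, so a strong peak marks a promoter or enhancer free of tightly packed nucleosomes in many of the cells.

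Only peak lists, without read counts per region, were compared, so each peak was given its rank in its own list by the peak caller's -log10 p, rank 1 being the strongest. The shortest list held 24389 peaks, and a peak was kept where it was among the 24389 best of its list. An element is a stretch of overlapping kept peaks seen in at least 2 lists, and elements are numbered from left to right along the chromosome within each gene (Batf-1, Batf-2 and so on). Differences are differences of mean log2 rank with ranks capped at 24390, so a negative value is a better rank and -1 is a rank divided by 2. The cap also limits how far an element near the bottom of the lists can move. The groups were taken as separate where every list of one ranked above every list of the other in both genotypes (or, for KO against WT, at every LPS time), and each p is from an exact two-sided permutation test within genotype or within LPS time. Adjusted p-values are Benjamini-Hochberg values over all 34155 elements, and the smallest exact p the design allows is 0.005 for LPS, 0.00025 for KO against WT and 0.1 for KO against WT at 1 LPS time. No label says that lists of a group came from separate animals, so p-values measure the spread between these lists.

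The lists differed in depth. Background reads per kb, recovered from the steps in the fold-enrichment column, ranged from 0.382 to 9.75. The window behind these reads is not given in the sources used here, and the shortest peak of each list was taken for it (66 bp in KO 18 h replicate 1, 152 to 219 bp in the others), so the depths and the depth-adjusted fit rest on that choice. WT lists had 5.11 to 9.75 at 0 h, 0.382 to 1.61 at 1 h and 4.62 to 8.38 at 18 h. KO lists had 0.720 to 7.65 at 0 h, 0.593 to 4.14 at 1 h and 1.10 to 1.76 at 18 h, so depth moved with LPS time in WT cells and its part in the differences was tested only by the depth-adjusted fit. WT 1 h replicate 1-2 was the shortest and shallowest list, and KO 18 h replicate 1 had a median peak width of 135 bp against 338 to 661 bp in the other 16 lists. Leaving both out, chosen after seeing the data, ended none of the calls for LPS times named here. Promoter peaks of 5 of 6 macrophage markers were kept in all 17 lists and that of Lyz2 in 16. None of 3 T cell and none of 3 B cell marker promoters was kept in any list. Of the other markers, Camp (neutrophils) was kept in 10 lists, Elane in 2, Col1a1 (fibroblasts) in 14, Pdgfra in 1, Apoa1 (hepatocytes) in 1, and Ly6g, Col3a1 and Alb in none. An element at chr15:101262097-101263296 in Nr4a1, the deleted gene, was kept in all 8 WT lists and in 8 of 9 from KO and ranked worse in KO than in WT at every LPS time (exact permutation p = 0.00025). Peaks over this gene thus remained in KO cells, and the lists do not show the deletion itself. An element open in fewer cells and an element less open in each cell cannot be told apart in these bulk samples.

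The loci are laid out as pairs on 2 chromosomes and singly on the others. Batf3 (chr1:191097847-191108945, + strand) and Atf3 (chr1:191170296-191218039, - strand) lie 61350 bp apart, and Jdp2 (chr12:85599027-85639878, +) and Batf (chr12:85686669-85709087, +) lie 46790 bp apart. Batf2 is at chr19:6140983-6172476 (+), Atf4 at chr15:80255184-80257541 (+), Atf5 at chr7:44812256-44816658 (-) and Atf7 at chr15:102525946-102625464 (-). Atf7 lies 1251150 bp from Nr4a1, the deleted gene. Of the 48 elements, 8 covered a start site of their own gene, 8 lay within 1 kb of a start site of a neighbour, 11 lay elsewhere in the gene body and 21 were distal. Atf3 had 9 elements and Jdp2 10, but 6 of those at Atf3 and 2 at Jdp2 were kept in all 17 lists. In all, 21 of the 48 elements were kept in every list, and another 247 of the 1126 peaks in these windows fell outside the elements, in 68 weak regions. At the edge of the 20 kb window, Batf-5 lay 19994 bp from the gene body (kept in 7 lists, mean capped rank 21893), while chr15:80233014-80234787, 20396 bp from Atf4, was left out although it was kept in 17 lists with a mean rank of 3700.

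The sequences around the summits of 8 elements that separated with LPS and stood highest in the lists are shown here, since the results away from the start sites turn on them. Each is the 201 bases around the middle summit of the lists that kept the element, read on the + strand of GRCm38, with AP-1, CARE and C/EBP motifs in capitals. They lie at chr1:191230576-191230776 (Atf3-9), chr1:191198044-191198244 (Atf3-5), chr12:85710704-85710904 (Batf-4), chr1:191111294-191111494 (Batf3-3), chr1:191189976-191190176 (Atf3-3), chr7:44792887-44793087 (Atf5-1), chr1:191224705-191224905 (Atf3-8) and chr1:191201294-191201494 (Atf3-6).
Atf3-9: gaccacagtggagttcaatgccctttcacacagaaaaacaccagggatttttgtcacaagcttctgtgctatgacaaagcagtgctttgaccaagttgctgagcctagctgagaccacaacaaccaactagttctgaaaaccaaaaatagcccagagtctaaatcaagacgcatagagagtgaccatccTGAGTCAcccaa
Atf3-5: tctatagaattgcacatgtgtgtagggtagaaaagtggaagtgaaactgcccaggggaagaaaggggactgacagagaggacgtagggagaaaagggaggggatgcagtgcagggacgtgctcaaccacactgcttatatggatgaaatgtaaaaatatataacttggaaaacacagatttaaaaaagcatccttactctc
Batf-4: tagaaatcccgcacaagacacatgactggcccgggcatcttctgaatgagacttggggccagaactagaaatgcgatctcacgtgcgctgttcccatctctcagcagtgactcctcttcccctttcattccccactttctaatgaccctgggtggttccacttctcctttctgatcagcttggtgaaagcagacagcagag
Batf3-3: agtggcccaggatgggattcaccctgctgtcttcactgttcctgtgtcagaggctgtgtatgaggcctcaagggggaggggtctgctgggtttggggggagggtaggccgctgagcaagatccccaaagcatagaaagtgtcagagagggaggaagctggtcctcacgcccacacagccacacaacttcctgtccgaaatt
Atf3-3: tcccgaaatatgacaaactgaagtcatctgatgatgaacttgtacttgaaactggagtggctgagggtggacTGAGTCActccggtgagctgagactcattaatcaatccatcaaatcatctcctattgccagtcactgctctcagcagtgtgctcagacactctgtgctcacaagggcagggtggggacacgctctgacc
Atf5-1: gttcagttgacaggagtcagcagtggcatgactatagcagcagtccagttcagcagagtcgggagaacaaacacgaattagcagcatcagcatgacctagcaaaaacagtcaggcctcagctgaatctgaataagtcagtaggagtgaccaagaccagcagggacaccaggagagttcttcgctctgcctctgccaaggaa
Atf3-8: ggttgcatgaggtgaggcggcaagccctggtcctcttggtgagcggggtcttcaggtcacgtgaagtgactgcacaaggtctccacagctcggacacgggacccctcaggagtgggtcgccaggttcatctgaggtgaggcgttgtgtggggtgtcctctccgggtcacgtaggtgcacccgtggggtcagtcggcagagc
Atf3-6: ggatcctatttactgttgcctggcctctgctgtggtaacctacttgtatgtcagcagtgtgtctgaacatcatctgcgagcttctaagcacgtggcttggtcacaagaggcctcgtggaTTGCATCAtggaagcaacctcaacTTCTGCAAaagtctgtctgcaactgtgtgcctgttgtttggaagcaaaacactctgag
The AP-1 motif (TGACTCA or TGAGTCA), read on both strands, was within 100 bases of the summit in 9 of 48 elements (18.8%), against 16.6% of all elements. Atf3-3 and Atf3-9 held it, and Batf-4, Atf3-5, Atf3-8, Batf3-3 and Atf5-1 held none of the 7 motifs searched. The C/EBP-ATF response element (CARE, TGATGNAA), a site of ATF4 with C/EBP proteins, was in 4 elements (8.33%, against 3.50% of all), among them the Atf3 promoter and Atf3-6. Other motifs were at or below the level over all elements. C/EBP letters (TTACNNAA or TTGCNNAA) were in 2 elements (4.17% against 17.1%), the PU.1 letters GAGGAAGT in 2 (against 7.99%) and the NF-kB motif in 2 (against 4.87%). The cyclic AMP response element TGACGTCA and the Nur77 response element AAAGGTCA were in 0 elements, against 1.28% and 1.01% of all. CARE and C/EBP letters can overlap, and a match is only a match of letters.

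After 1 h of LPS, 6 of the 48 elements ranked better in every list than at 0 h in both genotypes (12.5%, against 9.42% of all elements) and 3 ranked worse (6.25%, against 11.0%). After 18 h, 8 ranked better than at 0 h (16.7%, against 6.28%) and 1 worse (2.08%, against 8.66%). These contrasts share the untreated lists. Between 1 h and 18 h, 8 elements moved up (16.7%, against 6.34%) and 5 moved down (10.4%, against 8.65%). With all peaks at full rank, which gave 81 elements, that balance was 8 up and 9 down. The median difference of the 48 elements was 0 at 1 h (0.024 over all elements) and -0.11 at 18 h (0 over all). Because 9 of the 48 elements were kept in lists of a single LPS time and had to differ, these counts describe the loci and are no test of them. With each rank expressed as a percentile of its own full list, whose length differs between lists, 6 of the 9 calls at 1 h, 4 of the 9 at 18 h and 6 of the 13 from 1 h to 18 h ended, each keeping its direction. The calls that ended were those of Batf3-3, Atf3-4, Atf3-8, Atf3-9, Atf5-1 and Atf5-5 at 1 h, Batf-5, Jdp2-10, Atf3-4 and Atf7-1 at 18 h, and Jdp2-5, Atf3-3, Atf3-4, Atf3-5, Atf3-6 and Atf5-5 from 1 h to 18 h. Adjustment for depth also added calls at 1 h, with a better rank for Batf-3, Batf2-3 and Atf5-4 and a worse one for Batf3-5, which left the count at 9.

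**Figure D1:**
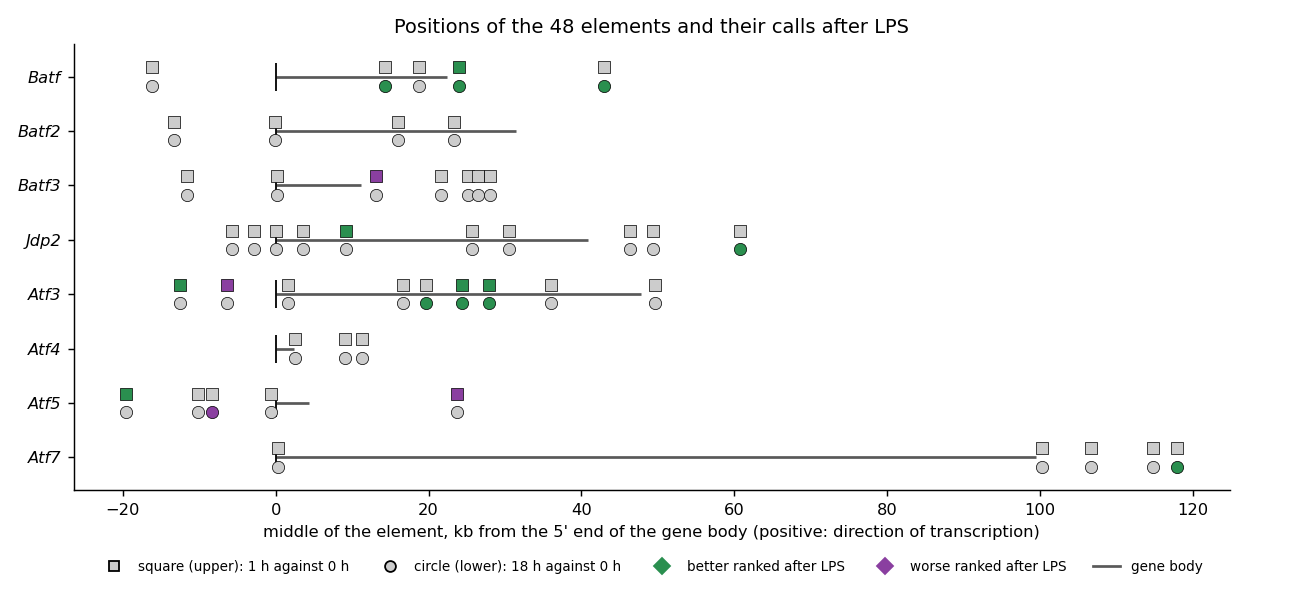
Position of the 48 accessible elements around the 8 genes, in kb from the 5′ end of each gene body, with a square for 1 h and a circle for 18 h of LPS against 0 h at each element and a line for the gene body. Green marks lists that separated with a better rank after LPS, purple those with a worse one and grey those that did not separate. The calls are 6 better and 3 worse at 1 h and 8 better and 1 worse at 18 h, with calls in both directions at Atf3 at 1 h.

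The Batf locus showed the largest gain at 18 h, at an element past the 3′ end of the gene and not at its start site. BATF is the partner of Jun in T cells and dendritic cells, and its gene has a single protein-coding start site. Batf-4 (chr12:85709727-85711678, intergenic, 23.1 kb downstream of the start site) ranked 19029, 12627 and 14300 in WT lists at 0 h, 1895 and 2764 at 1 h, and 2747, 3061 and 1328 at 18 h. In KO lists it ranked 13397, 16941 and 20689 at 0 h, 3225, 4085 and 7176 at 1 h, and 2111, 1609 and 1487 at 18 h. Every LPS list was above every untreated list. The difference was -2.30 at 1 h (WT -2.72, KO -1.88, exact permutation p = 0.005, adjusted p = 0.0272) and -3.02 at 18 h (WT -2.76, KO -3.29, exact p = 0.005, adjusted p = 0.0335). Between 1 h and 18 h it moved by -0.72, within the spread of the lists (exact p = 0.08, adjusted p = 0.216).

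Inside the gene, Batf-2 (chr12:85700642-85701396, in an intron) appeared with 18 h of LPS. It ranked 20175, 17413 and 23241 in WT lists at 18 h and 23855, 17942 and 22025 in KO lists at 18 h, and none of the 11 lists at 0 h and 1 h held a peak there at any rank. Its gain on the capped scale was -0.24, and no test is given since it became an element through its 18 h lists alone. Batf-5 (chr12, 19994 bp beyond the gene body) ranked better at 18 h too, from 12299 to 21504 in WT and from 13081 to 23273 in KO, with no kept peak in the untreated lists (-0.44, given without a test since it was kept through LPS lists alone, and -0.43 after adjustment for depth, which ended the separation).

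The intronic element Batf-3 (chr12:85704372-85706333) was the strongest of the locus. In WT it ranked 1335, 1686 and 1483 at 0 h, 1376 and 1707 at 1 h, and 577, 482 and 529 at 18 h. In KO it ranked 1460, 2178 and 5227 at 0 h, 604, 602 and 499 at 1 h, and 3312, 554 and 282 at 18 h. The 18 h lists stood above the untreated ones apart from KO 18 h replicate 1 (-1.59, exact p = 0.015, adjusted p = 0.0747), and without that list the groups separated. At the Batf start site a peak of any rank was present in 12 lists, from 19282 to 45061, and was kept in 1, WT 18 h replicate 1.

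Atf3 had the most elements kept in every list, 6 of the 9 in its window. The gene has 2 protein-coding start sites, and the promoter peak lay at the inner one (chr1:191183340), while the outer one (chr1:191218039) was kept in 0 lists and had a peak of any rank in 1. Between these start sites lie the intronic elements Atf3-3 to Atf3-7, and upstream of the outer one lie Atf3-8 and Atf3-9. The elements of this one gene followed different time courses.

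Atf3-3 (chr1:191189499-191190696, intron, AP-1 motif) moved up early. Its WT ranks were 16331, 18241 and 18938 at 0 h, 3059 and 2764 at 1 h, and 7497, 7474 and 6475 at 18 h. Its KO ranks were 13042 and 10912 at 0 h with no peak in the third list, 2553, 1786 and 2355 at 1 h, and 5925, 3824 and 5024 at 18 h. The 3 times did not overlap in either genotype, in the order 0 h, 18 h, 1 h from weakest to strongest. The differences were -2.70 at 1 h (adjusted exact p = 0.0272), -1.48 at 18 h (adjusted p = 0.0335) and 1.21 from 1 h to 18 h (adjusted p = 0.0372).

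Atf3-4 (chr1:191192307-191194930, intron, AP-1 motif) followed the same order. In WT it ranked 21048, 21810 and 20308 at 0 h, 8263 and 5956 at 1 h, and 15155, 18771 and 15062 at 18 h. The KO ranks were 18664, 20973 and 18588 at 0 h, 4629, 3683 and 3898 at 1 h, and 17260, 8892 and 15381 at 18 h. It rose by 1 h (-1.92, adjusted exact p = 0.0272) and fell back by 18 h (1.46 from 1 h, adjusted p = 0.0372) to a rank still better than untreated (-0.46, adjusted p = 0.0335). With only the 10000 best peaks of each list, the call at 18 h against 0 h ended, at -0.03. The peak also changed shape, a detail chosen after its values were seen. In 6 of 6 lists at 18 h a peak reached left of chr1:191192963, in 5 of them as a separate peak with its summit between 191192551 and 191192603 and a rank between 8892 and 19774, and in 0 of 11 lists at 0 h and 1 h. The KO ranks at 18 h are those of this left peak, and the peak on the right, where the 0 h and 1 h summits lie, ranked 14306 and 16727 in KO replicates 2 and 3 and was absent from replicate 1. In KO replicate 1 the better rank at 18 h than at 0 h thus rests on the left peak alone.

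Atf3-5 and Atf3-6, farther along the same intronic stretch, ranked better at 18 h than at 1 h. Atf3-5 (chr1:191197395-191199371) ranked 5701, 4781 and 6790 in WT at 0 h, 5849 and 5434 at 1 h, and 4321, 3011 and 2488 at 18 h. In KO cells it ranked 9380, 5698 and 7109 at 0 h, 5262, 3683 and 2482 at 1 h, and 1220, 2029 and 1792 at 18 h. Its 18 h lists stood above the untreated ones in both genotypes (-1.49, adjusted p = 0.0335, WT -0.84 and KO -2.14) and above the 1 h lists (-0.98, exact p = 0.01, adjusted p = 0.0606). Atf3-6 (chr1:191200880-191202010, CARE and C/EBP motifs) ranked 8093, 7091 and 7920 in WT at 0 h, 18626 with no peak in the other list at 1 h, and 6658, 5044 and 8048 at 18 h. KO lists had it at 6636, 8975 and 9859 at 0 h, 12675, 13130 and 7567 at 1 h, and 6567, 7450 and 4434 at 18 h. It ranked better at 18 h than at 1 h (-1.28, adjusted exact p = 0.0372), while the 18 h and 0 h lists overlapped (-0.36, exact p = 0.06, adjusted p = 0.173).

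Upstream of the outer start site, the pair Atf3-8 and Atf3-9 moved in opposite directions at 1 h. Atf3-8 (chr1:191222789-191225985, over an exon of the neighbouring transcript D730003I15Rik, 4.8 kb upstream) ranked 10023, 10724 and 5378 in WT at 0 h, 11828 and 16738 at 1 h, and 2467, 4957 and 6628 at 18 h. In KO it ranked 5138, 5494 and 8355 at 0 h, 17367, 13130 and 20243 at 1 h, and 7299, 4871 and 6962 at 18 h. It fell at 1 h (1.09, exact p = 0.01, adjusted p = 0.0441) and was back above the 1 h lists at 18 h (-1.55, adjusted p = 0.0372, a call that ended, at -1.31, with the peak nearest to the middle). Atf3-9 (chr1:191229690-191231454, intergenic, 11.7 kb upstream, AP-1 motif) was among the strongest peaks of the whole lists. Its WT ranks were 637, 678 and 588 at 0 h, 343 and 307 at 1 h, and 1860, 1657 and 1239 at 18 h, and its KO ranks were 757, 850 and 779, then 754, 166 and 475, then 8178, 1738 and 808. It rose at 1 h (-1.0, adjusted exact p = 0.0272) and stood lower at 18 h than at 1 h (2.40, adjusted p = 0.0372). Against 0 h the 18 h difference was 1.41 (exact p = 0.01, adjusted p = 0.0556), and the weakest of the 18 h ranks, 8178, was from KO 18 h replicate 1. After adjustment for depth the 1 h calls of Atf3-8 and Atf3-9 ended, with differences of 0.96 and -0.62.

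**Figure D2:**
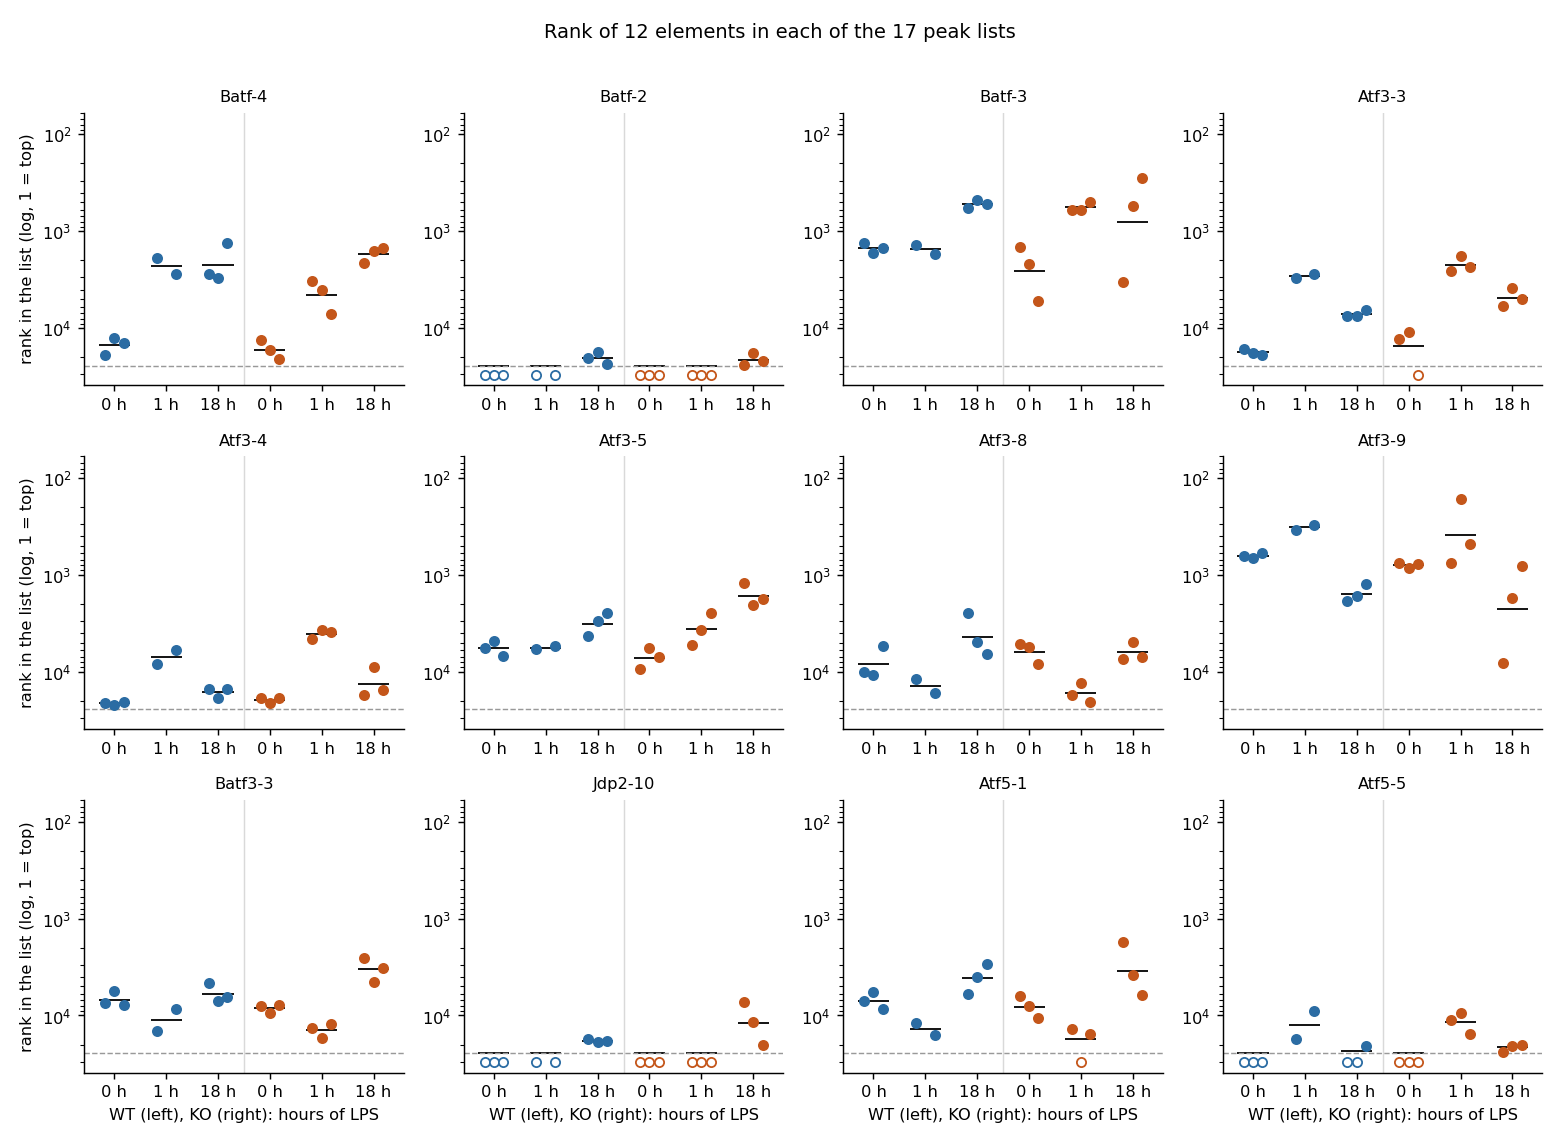
Rank in its own list (log axis, rank 1 strongest, stronger towards the top) of 12 elements in each of the 17 lists, WT in blue and KO in orange, at 0, 1 and 18 h of LPS. Filled points are kept peaks, open points, all drawn at 1 level, are peaks below the 24389 best or missing, the dashed line is that limit and bars are geometric means of the capped ranks. Batf-4 stays high at 1 h and 18 h, whereas Atf3-3 and Atf3-4 are highest at 1 h.

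Batf3, the BATF family member required for cross-presenting dendritic cells, had 7 elements, and 1 of them separated with LPS. Batf3-3 (chr1:191109815-191112056, intergenic, 11.5 kb downstream of the start site) ranked 7371, 5633 and 7878 in WT at 0 h, 14418 and 8666 at 1 h, and 4649, 7083 and 6475 at 18 h. The KO ranks were 7974, 9322 and 7714 at 0 h, 13385, 17011 and 12233 at 1 h, and 2529, 4501 and 3268 at 18 h. It fell at 1 h (0.73, adjusted exact p = 0.0272, a call that ended after adjustment for depth at 0.54) and rose from 1 h to 18 h (-1.49, adjusted p = 0.0372). The 18 h lists overlapped the untreated ones in WT, and over both genotypes the difference was -0.76 (adjusted exact p = 0.0918, WT -0.21 and KO -1.32). The best ranked element of the window, Batf3-1 (chr1:191084930-191087463, over a UTR of Nsl1), held ranks of 4006 to 9065 and Batf3-7 (chr1:191125192-191126477) held 8179 to 20457, both kept in all lists without separating with LPS.

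Jdp2 had the most elements and most of them were weak, with 30 weak regions besides, 18 of them in a single list. Jdp2-5 (chr12:85607703-85608671, summit in a coding exon of Jdp2) was kept at 1 h and at no other time, at ranks of 20457 and 23650 in WT and 18896, 9346 and 17691 in KO (-0.44, or -0.28 without KO 1 h replicate 2, and -0.24 after adjustment for depth, which ended its separation from 0 h and from 18 h). Jdp2-10 (chr12:85659313-85660102, distal, C/EBP and CARE motifs) was kept at 18 h and at no other time, at ranks of 17382, 18771 and 18409 in WT and 7299, 11750 and 20004 in KO (-0.73). Since each was kept through a single LPS time, no test is given for either. The stronger elements of the gene, its promoter and Jdp2-9 (chr12:85647256-85649536, 10508 to 23855), were kept in every list without separating. A further start site of Jdp2 (chr12:85602222) was kept in 2 lists.

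At Batf2, an interferon-responsive BATF family gene, no element separated with LPS in both genotypes over all lists. Batf2-3 separated with a better rank at 1 h after adjustment for depth or without WT 1 h replicate 1-2. Without that list it also separated with a worse rank from 1 h to 18 h. Over the same step, Batf2-1 and Batf2-2 separated with a better rank without KO 18 h replicate 1. Its strongest elements lay within 1 kb of start sites of its neighbours Snx15 (Batf2-1, ranks 712 to 4400) and Arl2 (Batf2-2, 800 to 10273). The Batf2 promoter element ranked 21048, 23153 and 19107 in WT at 0 h and 11194, 9474 and 9636 at 18 h, while KO ranks were 16177, 10484 and 20689 at 0 h and 17260, 8892 and 15381 at 18 h. The WT lists did not overlap and the KO lists did, and over both genotypes the difference was -0.63 (exact p = 0.03, adjusted p = 0.106).

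Around Atf5 the calls lay at elements away from its own start site, and around Atf4 there were none. Beside its promoter, Atf4 had Atf4-2 (chr15:80263525-80264853, within 1 kb of a start site of Rps19bp1, ranks 6474 to 14418 in all lists) and the weak Atf4-3, kept in 5 lists. Atf5-1 (chr7:44792462-44793477, intergenic, 22.2 kb downstream) ranked 7172, 5756 and 8513 in WT at 0 h, 11828 and 15883 at 1 h, and 5992, 3995 and 2961 at 18 h. In KO cells it ranked 6368, 7983 and 10715 at 0 h, 13650 and 15545 with no peak in KO replicate 2 at 1 h, and 1748, 3824 and 6087 at 18 h. It fell at 1 h (1.02, adjusted exact p = 0.0272) and rose from 1 h to 18 h (-2.03, adjusted p = 0.0372). The 1 h call ended, at 0.41, with only the 10000 best peaks of each list. Atf5-5 (chr7:44835220-44837198, summit in a UTR of Tbc1d17) lies within 1 kb of a start site of Il4i1, an amino acid oxidase gene, and stood highest at 1 h. It ranked 17414 and 9052 in WT and 11126, 9346 and 15545 in KO at 1 h, against 41209 to 44358 in untreated WT lists (-1.01, given without a test since it was kept through LPS lists alone, and -0.68 when the peak nearest to the middle of the element was ranked, which ended its separation from 0 h and from 18 h). Atf5-3 ranked worse at 18 h (0.35, adjusted exact p = 0.0335), and at Atf7 the element Atf7-1 (chr15:102506406-102508697, in Map3k12) ranked 16879, 17840 and 17767 in WT and 17260, 17942 and 16727 in KO at 18 h, all above the untreated lists at 22817 to 31242 (-0.47, given without a test since 1 untreated list kept it and it became an element through its 18 h lists). The strongest element in any of the 8 windows was Atf7-3 (chr15:102516383-102521253), within 1 kb of a start site of the neighbour Tarbp2, at ranks of 41 to 1918. Atf7-2, within 1 kb of a start site of Map3k12, was kept in 12 lists.

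None of the promoters of these genes separated with LPS in both genotypes, or with genotype over the 3 LPS times. Promoters were compared among 11393 genes with a kept peak within 1 kb of a protein-coding start site, and 7 of the 8 genes were tested, all but Batf. Over all promoters, 3.39% ranked better and 15.0% worse at 1 h, 2.45% and 8.05% at 18 h, and 5.09% and 4.77% from 1 h to 18 h, while 0.105% ranked better and 0.158% worse in KO than in WT. The median difference of the 7 promoters was 0.29 at 1 h and 0.18 at 18 h, beside 0.29 and 0.15 over all promoters.

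The promoters differed far more between genes than between conditions. Atf3, Atf5 and Atf7 held geometric mean capped ranks of 507, 493 and 431, and these 3 do not differ beyond their spread (ranges 173 to 1748, 165 to 1880 and 217 to 3059). Atf4 followed at 1667 (791 to 4213), then Jdp2 at 9062 (5717 to 14234), Batf2 at 15185, Batf3 at 22882, kept in 7 lists, and Batf at 24055, kept in 1. The Atf3 promoter ranked 293, 397 and 715 in WT and 588, 173 and 200 in KO at 0 h, and 807, 714 and 627 in WT and 1748, 1109 and 757 in KO at 18 h. It stood lower at 18 h except that WT 0 h replicate 3 lay among the WT 18 h lists (1.38, exact p = 0.015, adjusted p over promoters = 0.091). Without WT 0 h replicate 3, or after adjustment for depth, the groups separated. The Atf5 promoter, whose peak also covers start sites of Il4i1 and Nup62, ranked 283, 273 and 165 in WT and 165, 616 and 422 in KO at 0 h, and 709 and 653 in WT and 824, 491 and 1138 in KO at 1 h. It was lower at 1 h (1.34, exact p = 0.01, adjusted p over promoters = 0.0469), although KO replicate 2 of each time overlapped.

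**Figure D3:**
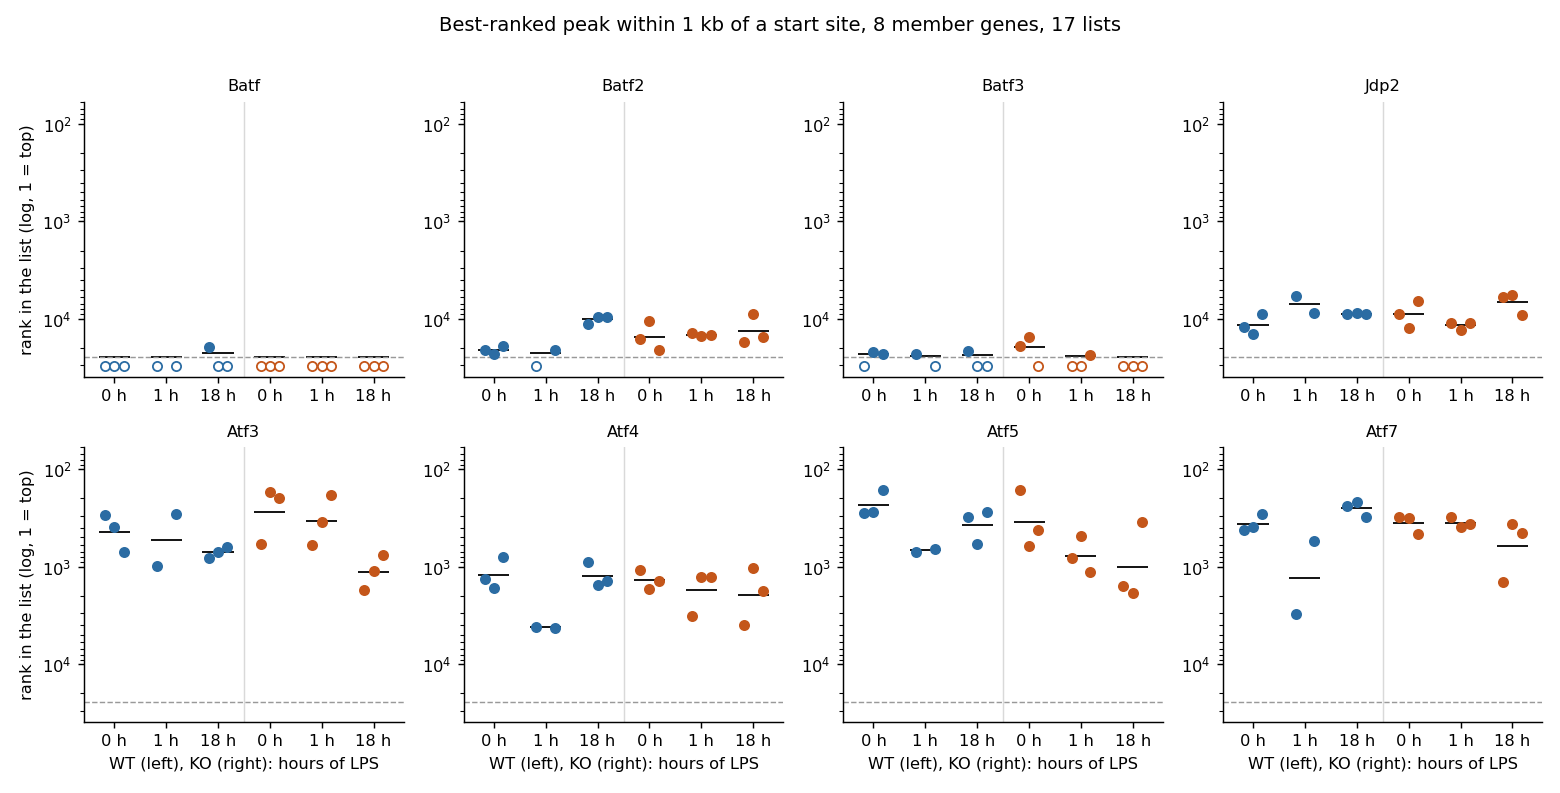
Rank in its own list (log axis, stronger towards the top) of the promoter peak of each of the 8 genes in the 17 lists, WT in blue and KO in orange, at 0, 1 and 18 h of LPS, with open points for peaks below the 24389 best or missing and bars for geometric means of capped ranks. Atf3, Atf5 and Atf7 lie near the top of the lists under all conditions and Batf lies at or beyond the limit in all but 1 list.

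The promoters whose ranks ran most like those of these genes over the 17 lists were found by Pearson correlation among 11392 others, as a description in which lists share depth. The Atf3 promoter was closest to those of Prkce (r = 0.892), Tfdp1 (0.871) and Gpatch8 (0.855), and that of Atf7 to Trpc4ap (0.911), Ehbp1l1 (0.888) and Brd8 (0.888). Il4i1 and Nup62 matched Atf5 at r = 1 because they share its peak. Among 19 other AP-1 and CREB family genes, 2 promoters ranked better at 1 h, Maff (-2.73) and Creb1 (-1.66), and 2 ranked worse, Maf (1.37) and Mafg (0.97), each with an adjusted exact p over promoters of 0.0319. At 18 h against 0 h, 0 ranked better and 1 ranked worse, Fosl2 (1.41, adjusted exact p = 0.0476). From 1 h to 18 h, Fosl2 (0.98), Maff (3.11) and Creb1 (1.92) stood lower, with adjusted exact p-values of 0.0872, 0.0584 and 0.0584. MAFF is a small Maf protein without an activation domain and FOSL2 a Fos protein, and no Fos or Jun gene separated at 1 h. After adjustment for depth the Maf call at 1 h ended and the Jund promoter separated with a worse rank. When only same-numbered lists were compared, the Fosl2 and Jund promoters ranked worse at 1 h than at 0 h in every pair.

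Loss of Nur77 separated 0 of the 48 elements over the 3 LPS times, against 0.111% of all elements better and 0.161% worse in KO. By the exact permutation test 0 of the 48, and 0 of all 34155 elements, reached an adjusted p under 0.05, and 2 of the 48 had an unadjusted p under it (4.17%, against 6.98% of all elements), Atf3-3 (-0.40, p = 0.0202, adjusted p = 0.522) and Atf3-4 (-0.40, exact p = 0.0135, adjusted p = 0.500), both toward a better rank in KO. KO lists of Atf3-4 at 1 h, at 3683 to 4629, stood above the WT lists at 5956 and 8263. At 18 h the KO ranks of Atf3-4 were those of its left peak, and the WT ranks those of its right or joined peak. The right peak ranked 14306 and 16727 in KO replicates 2 and 3 and was absent from replicate 1. The 18 h part of the Atf3-4 difference thus compares unlike peaks. The median difference over the 48 was 0.0055, beside 0.0024 over all elements.

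At single LPS times the smallest exact p is 0.1, so the next counts are descriptions. At 0 h, 0 elements ranked better in KO (3.89% of all elements) and 4 worse (8.33%, against 6.27%), namely Batf-1, Batf2-1, Batf2-3 and Atf3-9. At 1 h, 10 ranked better in KO (20.8%, against 8.69%), namely Batf-1, Batf-3, Jdp2-5, Atf3-3 to Atf3-6 and the promoter elements of Batf2, Atf4 and Atf7 (Batf2-4, Atf4-1 and Atf7-5), and 3 worse (6.25%, against 7.03%), namely Batf-4, Jdp2-7 and the Jdp2 promoter element Jdp2-3. At 18 h, 3 ranked better, Batf3-3, Atf3-3 and Atf3-5 (6.25%, against 3.15%), and 2 worse, Batf3-7 and the promoter element Atf7-5 (4.17%, against 8.76%). At 1 h the WT group holds 2 lists, 1 of them the shallowest, and at 18 h each KO list is shallower than each WT list, so depth and genotype cannot be told apart at 18 h.

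The change with LPS differed between genotypes at an unadjusted exact p under 0.05 for 7 elements at 1 h (14.6%, against 3.59% of all elements) and 2 at 18 h (4.17%, against 3.59%). None of these, and 0 of all 34155 elements, had an adjusted exact p under 0.05 (0.933 at 1 h and 0.936 at 18 h for these). Batf-3 had the largest of these differences, with 0.04 in WT and -2.17 in KO at 1 h (exact p = 0.015). The KO ranks at 0 h ranged from 1460 to 5227 and those at 1 h from 499 to 604, whereas the WT lists at 0 h and 1 h overlapped. At 18 h the pair was Batf3-3 (WT -0.21, KO -1.32) and Atf3-5 (WT -0.84, KO -2.14), both with a larger gain in KO.

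**Figure D4:**
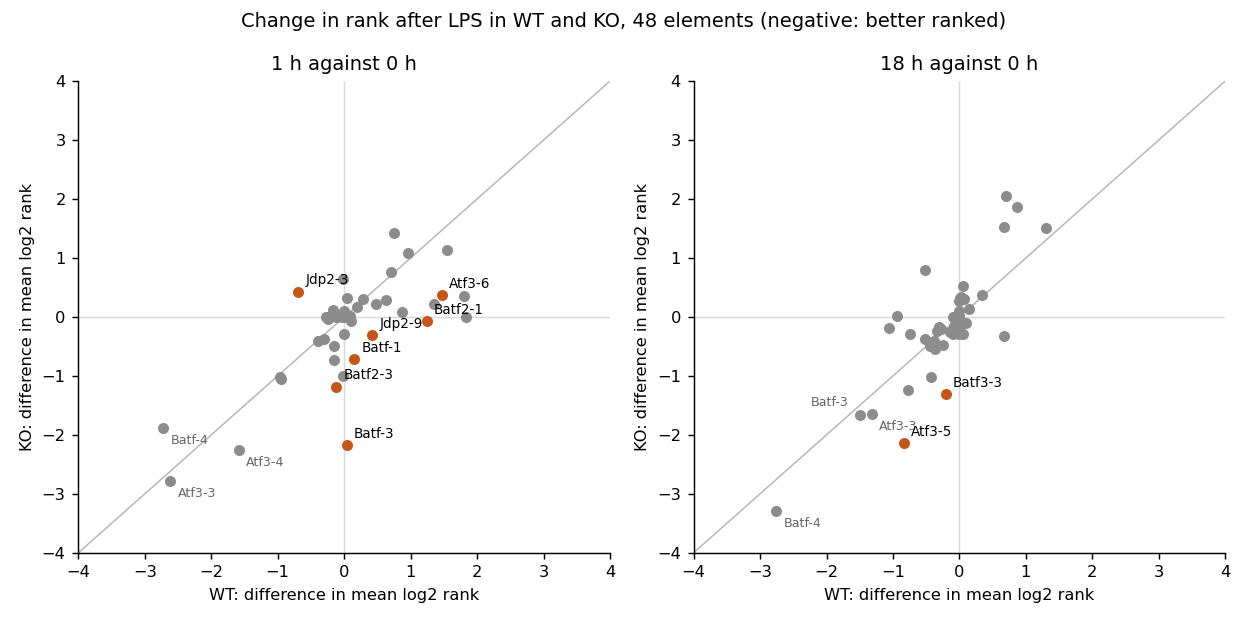
Difference in mean log2 rank between LPS and 0 h in WT (x axis) and KO (y axis) for the 48 elements, at 1 h and at 18 h, where negative values are better ranks after LPS and the diagonal marks equal differences. Batf-4 and Atf3-3 lie toward the lower left at 1 h and 18 h, and orange points are the 7 elements at 1 h and the 2 at 18 h whose differences had an unadjusted exact p under 0.05 for KO against WT.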

How the data were processed

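The data were 17 ATAC-seq peak lists, 1 per GEO sample, with groups taken from the labels. Reads had been trimmed with cutadapt 2.6, mapped to mm10 and run through the snakeATAC pipeline at its defaults, and the submitters' processing notes also name DiffBind 3.0.15. The peak names record a mapping quality of 20, removal of duplicates and mitochondrial reads, and a q-value of 0.001. Peaks were called per list. The values deposited by the authors are, per peak, a score, the fold enrichment over background (a ratio), -log10 of the p-value, -log10 of the q-value and the summit offset. Of these, -log10 p gave the ranks and fold gave the depth, since 100% of the fold values were whole multiples of 1 read step within 0.05.

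Entries sharing an interval were collapsed to the best summit (808470 intervals in all lists), ties took mid-ranks (up to 16.9% of kept peaks tied at the limit), and kept peaks of any list overlapping by 1 bp were merged. Differences were computed within genotype or LPS time and averaged over these strata with equal weight. For the LPS response of KO against WT, genotypes were exchanged within each LPS time. Tests were checked on simulated ranks. Python 3.11.15, numpy 2.4.6, pandas 2.3.3, scipy 1.17.1 and matplotlib 3.10.9 were used, and sequences and start sites were read from the GRCm38 reference genome and its GENCODE annotation. By rule, the text names every promoter element, every called element and the 3 best ranked elements of each gene, sequences of up to 8 of them, and the 3 promoters most like those of the 3 genes whose promoter rank varied most. The member genes, the other AP-1 genes, the markers and the motifs were chosen with earlier results of these data known. The list of other AP-1 genes first held 1 more, which is not reported here, and the 19 left are reported. Alternatives changed the number of peaks kept, the scale, the element definition, the depth adjustment, the replicate block and the lists included.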

Additional observations from a re-analysis of the deposited data

Results flagged for a closer look

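The change in rank with LPS differed between KO and WT lists, at an unadjusted exact permutation p under 0.05, at the 9 elements below. No adjusted p was under 0.05 (0.933 for each at 1 h and 0.936 for each at 18 h), so these are leads for a closer look. Each value is the KO difference minus the WT difference in log2 rank, and a negative value is a larger gain, or a smaller loss, in KO.

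At 1 h, Batf-3 differed by -2.21 (WT 0.04, KO -2.17, exact p = 0.015) and Batf-1 by -0.87 (WT 0.15, KO -0.71, exact p = 0.005). At the Batf2 locus, Batf2-1 differed by -1.31 (WT 1.24, KO -0.07, exact p = 0.015) and Batf2-3 by -1.07 (WT -0.12, KO -1.18, exact p = 0.015). Atf3-6 differed by -1.10 (WT 1.47, KO 0.37, exact p = 0.045) and Jdp2-9 by -0.73 (WT 0.42, KO -0.31, exact p = 0.045). The Jdp2 promoter element Jdp2-3 went the other way, by 1.12 (WT -0.69, KO 0.43, exact p = 0.045). Without WT 1 h replicate 1-2 and KO 18 h replicate 1, chosen after seeing the data, Batf-1, Batf-3 and Batf2-1 kept a p under 0.05 and the other 4 did not. The p of Batf-3 was also lost without WT 0 h replicate 1 or any single KO 1 h list, and that of Batf2-1 without WT 1 h replicate 3, where fewer regroupings remain, while the differences were between -2.26 and -2.12 for Batf-3 and at -1.12 for Batf2-1. Without WT 1 h replicate 1-2 the differences of Batf2-3 and Jdp2-9 were -0.58 and -0.45. Adjustment for depth ended Jdp2-9 (-0.51) and Atf3-6 (-0.79). With only the 10000 best peaks of each list, Batf2-3 (-0.43) and Atf3-6 (-0.26) lost their p. Batf-1 and Jdp2-9 lost theirs too, with no difference left.

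At 18 h, Batf3-3 differed by -1.11 (WT -0.21, KO -1.32, exact p = 0.01) and Atf3-5 by -1.30 (WT -0.84, KO -2.14, exact p = 0.015). At 18 h the background level was 1.10 to 1.76 reads per kb in KO lists and 4.62 to 8.38 in WT lists. Both differences kept a p under 0.05 after adjustment for log2 depth. That fit cannot tell depth from genotype at 18 h, since each KO list is shallower than each WT list.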

How the results depend on the processing

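With the 10000 best peaks of each list, which left 24 elements, the calls at the loci went from 9 to 5 at 1 h against 0 h, from 9 to 3 at 18 h against 0 h, from 13 to 8 at 18 h against 1 h, and from 7 to 3 for the response at 1 h. With all peaks at full rank and 81 elements there were 14 calls at 1 h against 0 h, 13 at 18 h against 0 h and 17 at 18 h against 1 h. On the percentile scale the response of Jdp2-3 at 1 h changed sign, with 0 calls and a difference of -0.76 percentile points, and the cause was not tested. The percentile scale also ended 17 of the 40 calls for single elements, named in the report for LPS and Batf3-3 for the response at 18 h, and the 10000 best peaks ended 19. Adjustment for log2 depth added 1 promoter at 18 h against 0 h, Atf3.

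Same-numbered lists did not deviate together more than others (correlations -0.279 to 0.186 over 21 pairs, against -0.334 to 0.474 over 51 pairs of unlike numbers). Lists of a group also differ in depth, so these correlations cannot show whether the numbers mark animals or batches. With the replicate block, which compared same-numbered lists only, there was 1 call for KO against WT (main 0). It also gave 1 member promoter at 18 h against 1 h (main 0) and 2 other AP-1 promoters at 18 h against 0 h (main 1). WT 1 h replicate 1-2 had no partner there. For the response, the block called an element where every KO pair lay on the same side of every WT pair, and not by p. It gave 22 calls at 1 h, resting on a single WT pair, and 4 at 18 h. These cannot be compared with the main counts of 7 and 2, which used p. Without both lists that stand apart the counts were 3 for the response at 1 h, 1 promoter at 18 h against 1 h (Atf3), and 2 other AP-1 promoters at 18 h against 0 h (main 1) and 6 at 18 h against 1 h (main 3).

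Leaving out each list in turn gave 9 to 10 calls at 1 h against 0 h, 9 to 11 at 18 h against 0 h, 13 to 16 at 18 h against 1 h, 0 to 1 for KO against WT (Atf3-3, without KO 0 h replicate 3), 2 to 7 for the response at 1 h and 2 to 4 at 18 h. It gave 0 to 1 member promoters in each LPS contrast: Atf5 at 1 h without KO 0 h replicate 2 or KO 1 h replicate 2, Atf3 at 18 h against 0 h without WT 0 h replicate 3, and Atf3 at 18 h against 1 h without WT 1 h replicate 1-2. Other AP-1 promoters gave 1 to 2 at 18 h against 0 h, with Jun, Junb, Fosl1 or Mafk added without WT replicate 1 of 0 h or 3 of 18 h, KO replicate 1 or 2 of 0 h, or KO replicate 1 or 2 of 18 h, and 3 to 6 at 18 h against 1 h, the most without KO 18 h replicate 1. Peak lists carry no read counts per region, and near the bottom of the lists, where ranks meet the cap, the size of a difference is limited by the cap.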
